A study of Mus musculus with 8 samples.

Results

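Zfp37, Hdhd3 and Alad, the genes examined here, are 3 of the 119 genes in the deposited small intestinal (SI) table and lie together on mouse chromosome 4. They were picked by name within a window of 0.5 Mb, and no other listed gene falls in it. The table holds only genes selected on the difference between KO and WT in these same libraries, and the 3 were chosen by their RPKM in WT and KO, so differences between the groups are given below as a description, with no test. RNA was sequenced from whole SI tissue of 4 wild-type (WT) mice and 4 Smarcad1-KO (KO) mice, all males of C57BL/6 background, and ages are not given in the sources used here. KO mice carried Smarcad1 fl/fl, with loxP sites around exons of this chromatin remodeler, together with Vil-cre, a Cre driven by the Villin promoter. The authors used it to delete Smarcad1 in the intestinal epithelium. The authors made floxed lines from separate embryonic stem cell clones and state that a single line was used for all further studies. The line behind these libraries is not named separately. Whether WT mice carried the floxed allele or Vil-cre is not given in the sources used here. Whole tissue also holds muscle, stromal and immune cells in which Smarcad1 was not deleted.

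Alad encodes delta-aminolevulinic acid dehydratase, the zinc enzyme that forms porphobilinogen, the pyrrole from which heme is built, and the classic target of lead poisoning. Its gene is known to be carried as a tandem duplication in some inbred mouse strains, DBA/2 among them. Hdhd3 encodes a protein of the haloacid dehalogenase-like hydrolase family, a large family that includes many phosphatases. Zfp37 encodes a KRAB zinc finger protein. Proteins of that class bind DNA through their fingers and recruit TRIM28, a corepressor linked to H3K9me3 to which SMARCAD1 is known to bind. Copy number, genotype and chromatin at the locus were not measured here, and the labels give the strain as C57BL/6 without the substrain of each mouse. The authors describe the targeted embryonic stem cells, and the background in which Cre excised the exons, as C57BL/6J. Their mouse methods name C57BL/6 only, as they do for the injected blastocysts. Vil-cre came from a Jackson Laboratory stock whose background the methods do not state. Whether the WT and KO mice carried the same alleles and copies of Alad and Hdhd3 was therefore not tested, and a difference in genetic background and the deletion of Smarcad1 cannot be told apart in these ratios.

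The 3 genes are protein-coding and all lie on the minus strand (GRCm38). Zfp37 (ENSMUSG00000028389.12) is listed at chr4:62189540-62208446, Hdhd3 (ENSMUSG00000038422.2) at chr4:62499008-62503467 and Alad (ENSMUSG00000028393.10) at chr4:62509169-62519918. The listed spans of Hdhd3 and Alad equal the annotated genes, whereas annotated Zfp37 runs on to 62231047 through a further upstream transcript. Hdhd3 and Alad are direct neighbours, 5.70 kb apart with 0 protein-coding genes between them. Zfp37 lies 290.6 kb from Hdhd3, and 8 protein-coding genes sit in that gap: Slc31a2, Fkbp15, Slc31a1, Cdc26, Prpf4, Rnf183, Wdr31 and Bspry. Of these 8, 0 are in the deposited table, and their levels were not analysed here. The listed genes nearest on either side are Abca1, 9.03 Mb away, and Tlr4, 4.31 Mb away. No annotated gene overlaps the listed span of any of the 3.

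**Figure D1:**
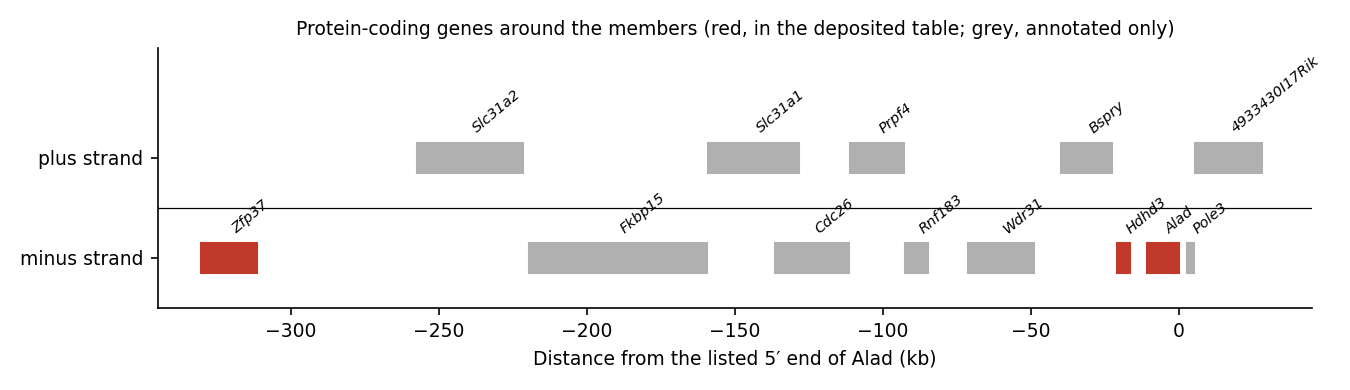
Protein-coding genes around Zfp37, Hdhd3 and Alad, drawn to scale in kb from the listed 5′ end of Alad, with plus-strand genes above and minus-strand genes below. Red genes are in the deposited table and grey genes are annotated only; the 8 grey genes between Zfp37 and Hdhd3 separate the members by 290.6 kb, while Hdhd3 and Alad are 5.70 kb apart.

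Because the 3 genes were all higher in KO, their promoters are shown side by side. RefSeq windows of 250 bases before to 50 after a start site (GRCm38.p6, minus strand) matched all 3 genes, and the window whose start site lay nearest the listed 5′ end was taken. That site lay 100 bases from the listed end for Zfp37, 9 for Alad and 1267 for Hdhd3, where it falls inside the gene. The windows cover chr4:62208497-62208796 for Zfp37, chr4:62502151-62502450 for Hdhd3 and chr4:62519860-62520159 for Alad. Capitals mark matches, on either strand, to the GC box GGGCGG, the CCAAT box CCAAT, the TATA box TATAAA and the E-box CACGTG, with overlapping matches run together.
Zfp37: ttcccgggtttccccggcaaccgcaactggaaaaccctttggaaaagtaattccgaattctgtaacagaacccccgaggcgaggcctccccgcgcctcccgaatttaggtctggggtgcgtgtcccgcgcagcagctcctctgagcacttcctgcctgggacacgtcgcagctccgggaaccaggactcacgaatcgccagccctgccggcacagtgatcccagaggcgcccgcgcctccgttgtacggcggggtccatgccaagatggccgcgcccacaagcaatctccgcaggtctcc
Hdhd3: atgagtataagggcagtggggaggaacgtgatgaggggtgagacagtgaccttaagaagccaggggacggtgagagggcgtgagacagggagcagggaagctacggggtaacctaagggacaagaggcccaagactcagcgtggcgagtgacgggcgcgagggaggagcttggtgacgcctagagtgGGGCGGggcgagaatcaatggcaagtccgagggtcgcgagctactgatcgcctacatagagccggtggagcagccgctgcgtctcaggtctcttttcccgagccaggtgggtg
Alad: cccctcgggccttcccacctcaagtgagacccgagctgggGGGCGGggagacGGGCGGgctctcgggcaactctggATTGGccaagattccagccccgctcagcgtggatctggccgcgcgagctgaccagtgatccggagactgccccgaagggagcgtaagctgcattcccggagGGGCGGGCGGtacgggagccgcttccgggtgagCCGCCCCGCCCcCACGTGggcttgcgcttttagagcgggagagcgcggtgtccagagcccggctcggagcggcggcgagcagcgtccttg
All 3 windows were rich in GC and CpG. GC made up 64.0% of the Zfp37 window, 61.7% of the Hdhd3 window and 71.3% of the Alad window, against a median of 52.7% over 32851 windows, and the CpG counts were 27, 20 and 33 against a median of 7. No motif was shared by all 3. The Alad window held 6 GC boxes, 1 CCAAT box and 1 E-box, the Hdhd3 window held 1 GC box, and the Zfp37 window held 0 matches to the 4 motifs. Over all windows the GC box occurred in 35.7%, the CCAAT box in 37.4%, the TATA box in 13.6% and the E-box in 7.15%. A match describes letters and not a bound site.

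Levels are given as RPKM, reads per kilobase scaled to mapped reads, and the kilobases in this table are those of the genomic span, introns included. The libraries held from 56981718 to 70345519 mapped reads in WT and from 58634590 to 78026423 in KO, so that the depths overlapped. Smarcad1, the targeted gene, was at 0.312, 0.337, 0.373 and 0.313 RPKM in WT libraries 1 to 4 and at 0.242, 0.209, 0.214 and 0.276 RPKM in KO libraries 1 to 4. Each KO library was thus lower than each WT library, and groups did not overlap in 85 of the 119 listed genes (71.4%, either direction). The Smarcad1 level covers the listed span of 73384 bp and not the deleted exons alone, so it does not measure the deletion. The epithelial markers on the list used here (0 of 14), the erythroid markers (0 of 10), the smooth muscle markers (0 of 7) and the lymphoid markers (0 of 10) are not in the table, so the labelled tissue could not be checked against them. Of 15 pancreatic acinar markers 2, Clps and Pnliprp2, are in the table, and their summed level ran from 26.2 to 37.1 RPKM in WT and from 20.1 to 27.0 RPKM in KO. Their part in the results on the chromosome 4 genes was not tested. In bulk tissue, fewer cells of a type and less RNA per cell cannot be told apart.

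Alad showed the largest change of the 3. Its RPKM was 2.51, 3.01, 2.66 and 1.97 in WT libraries 1 to 4. In KO libraries 1 to 4 it was 5.57, 7.49, 7.62 and 5.18 RPKM. Every KO library thus stood above every WT library, and the lowest KO value was 1.72 times the highest WT value. Mean RPKM went from 2.54 ± 0.432 to 6.46 ± 1.27 (SD, n = 4 per group), 2.55 times the WT level. On the log2(RPKM + 0.1) scale the difference was 1.31 ± 0.17 (SE, limma fit over 119 genes). Leaving out any 1 library gave ratios of 2.37 to 2.72.

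Hdhd3, the gene next to Alad, changed least. It stood at 3.86, 5.47, 4.63 and 3.58 RPKM in WT libraries 1 to 4. The KO libraries 1 to 4 had 8.54, 8.68, 9.34 and 6.46 RPKM. The groups again did not overlap, although KO library 4 came within 1.18 times of the highest WT library. WT averaged 4.39 ± 0.849 RPKM and KO 8.26 ± 1.25 RPKM (SD, n = 4 per group), a ratio of 1.88 that ran from 1.77 to 2.05 with any 1 library left out. The log2 difference was 0.90 ± 0.16 (SE, limma).

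Zfp37, the most distant and least abundant of the 3, fell between them. Its RPKM was 0.296, 0.473, 0.409 and 0.298 in WT libraries 1 to 4. In KO libraries 1 to 4 it was 0.691, 0.905, 0.811 and 0.929. All KO values exceeded all WT values, the lowest KO being 1.46 times the highest WT. The mean went from 0.369 ± 0.0870 to 0.834 ± 0.108 RPKM (SD, n = 4 per group), a ratio of 2.26 with a range of 2.12 to 2.49 when any 1 library was left out. The log2 difference was 1.00 ± 0.15 (SE, limma) at the pseudocount of 0.1, which weighs on a gene this low.

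**Figure D2:**
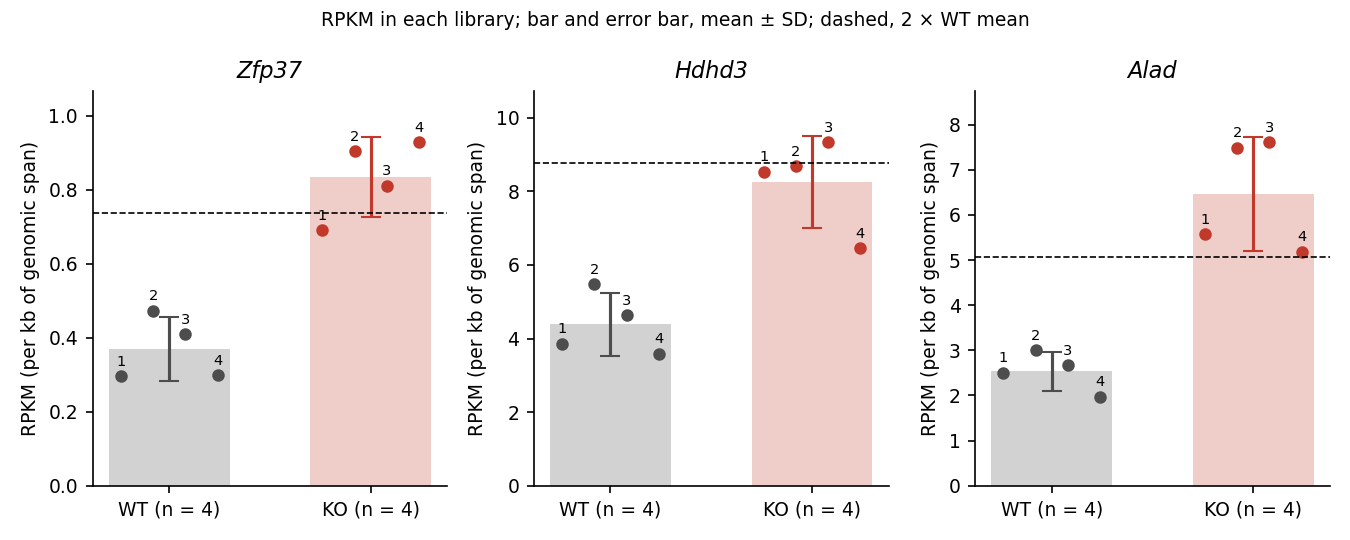
RPKM of Zfp37, Hdhd3 and Alad (y axes, per kb of genomic span, each from 0) in 4 WT and 4 KO libraries, with points numbered by replicate, bars for the mean, error bars for the SD and a dashed line at 2 times the WT mean. All KO points lie above all WT points in each panel, and the KO mean is above the dashed line for Zfp37 and Alad and below it for Hdhd3.

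The absence of overlap says little about these 3 genes in particular. It held in 3 of 3 members, and among all 119 listed genes 58 (48.7%) had every KO library above every WT library. In either direction, 85 genes (71.4%) had groups that did not overlap, and 59 (49.6%) had a higher mean in KO. A ratio of mean RPKM above 2, or WT at 0, occurred in 29 genes (24.4%), and in Zfp37 and Alad but not in Hdhd3. The median ratio of the 59 higher genes was 1.97. By ratio, Alad stood at place 21, Zfp37 at place 24 and Hdhd3 at place 34 of those 59. Among the 28 higher genes with a mean of at least 0.5 RPKM, where the median ratio was 1.76, they stood at places 6, 7 and 11.

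The levels were also set against a 2-fold step, that is 2 times the WT mean. For Alad 2 times the WT mean was 5.07 RPKM, and all 4 KO libraries exceeded it, at 2.04 to 3.00 times the WT mean, or 3 of 4 without WT replicate 4. For Zfp37 it was 0.738 RPKM, and 3 of the 4 KO libraries exceeded it, at 1.87 to 2.52 times the WT mean, or 4 of 4 without WT replicate 2. For Hdhd3 it was 8.77 RPKM, and 1 of the 4 KO libraries exceeded it, at 1.47 to 2.13 times the WT mean. The Hdhd3 count was unstable, with KO libraries 1 and 2 at 1.95 and 1.98 times the WT mean: it became 3 of 4 without WT replicate 2 or with the WT median as reference, and 2 of 4 without WT replicate 3. The Hdhd3 ratio itself passed 2 with medians (2.03), with scaling by the listed genes (2.10), without WT replicate 2 (2.05) and without KO replicate 4 (2.02), so the side of the step on which Hdhd3 fell was not settled.

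How close the log2 differences came to a 2-fold step, which is 1 on that scale, depended on the setting. For Zfp37 the value of 1.00 ± 0.15 rests on the pseudocount of 0.1, and it was 1.17 ± 0.18 at 0.01, 0.42 ± 0.06 at 1, 1.13 ± 0.13 scaled by the listed genes and 1.20 ± 0.19 with voom on recovered reads. Hdhd3 ranged from 0.78 ± 0.14 at a pseudocount of 1 to 1.05 ± 0.12 scaled by the listed genes, with 0.81 ± 0.17 without WT replicate 4. Alad ranged from 1.07 ± 0.14 at a pseudocount of 1 to 1.45 ± 0.15 scaled by the listed genes. Among the 16 ratios of a single KO to a single WT library, 13 exceeded 2 for Alad, 10 for Zfp37 and 7 for Hdhd3, with medians of 2.58, 2.29 and 1.86 and full ranges of 1.72 to 3.87, 1.46 to 3.14 and 1.18 to 2.61.

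**Figure D3:**
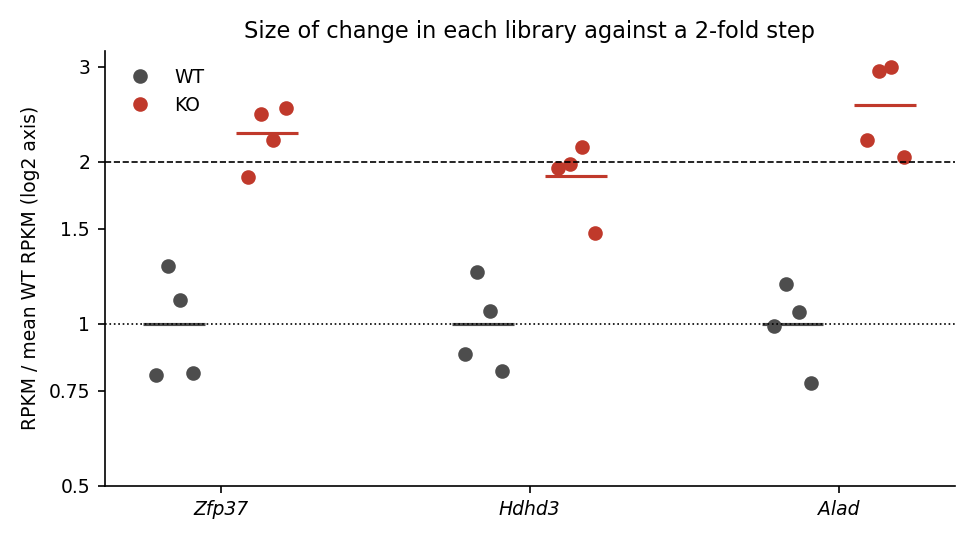
RPKM of each library divided by the mean WT RPKM of the same gene (y axis, log2 scale) for Zfp37, Hdhd3 and Alad, with WT in grey, KO in red, a short line at each group's mean, a dotted line at 1 and a dashed line at 2. KO points reach from 2.04 to 3.00 for Alad, from 1.87 to 2.52 for Zfp37 and from 1.47 to 2.13 for Hdhd3.

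Counting error was small beside these spreads. Between 319 and 1371 reads stood behind each Zfp37 value, a counting error of 2.70% to 5.60%, whereas the libraries varied by 23.6% in WT and 13.0% in KO (SD over mean). Hdhd3 had 980 to 2813 reads per library, with a counting error of 1.89% to 3.19% and a spread of 19.4% in WT and 15.1% in KO. Alad, with 1489 to 4988 reads, had a counting error of 1.42% to 2.59% and a spread of 17.0% in WT and 19.6% in KO. Reads are not independent molecules, so these errors cover counting only.

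Read per kilobase of genomic span, the WT order was Hdhd3, Alad, Zfp37. The share of introns differed between the genes: exons make up 30.6% of the listed span of Hdhd3, 17.4% of that of Alad and 19.5% of that of Zfp37. With the same reads divided by merged exon length instead, Hdhd3 and Alad were alike in WT, at 14.3 ± 2.77 and 14.6 ± 2.48, with Zfp37 far lower at 1.89 ± 0.446 (SD, n = 4 each, on the RPKM scale with exonic kilobases). In KO the same quantity was 27.0 ± 4.07 for Hdhd3, 37.1 ± 7.27 for Alad and 4.27 ± 0.554 for Zfp37. The KO ranges of Alad (29.8 to 43.8) and Hdhd3 (21.1 to 30.5) overlapped slightly. Whether reads within introns were counted is not settled, so the exonic scale is approximate.

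How far the genes moved together was read from their ratio within a library, which does not depend on the scaling of that library. The Alad to Hdhd3 ratio of RPKM was 0.650, 0.550, 0.575 and 0.550 in WT libraries 1 to 4. In KO libraries 1 to 4 it was 0.653, 0.862, 0.815 and 0.802. The ratio was therefore higher in KO, at 0.783 ± 0.0907 against 0.581 ± 0.0474 in WT (SD, n = 4 each), although KO library 1 barely cleared WT library 1. The change in Alad thus exceeded that in its direct neighbour by a mean of 1.35-fold.

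Zfp37 kept a steady ratio to Hdhd3 in WT, at 0.0837 ± 0.00505, and a scattered one in KO, at 0.104 ± 0.0284 (SD, n = 4 each). The KO scatter came mostly from library 4, at 0.144 against 0.0809 to 0.104 in the other KO libraries. The ratio of Zfp37 to Alad overlapped between the groups, at 0.145 ± 0.0182 in WT and 0.133 ± 0.0320 in KO (SD, n = 4 each).

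**Figure D4:**
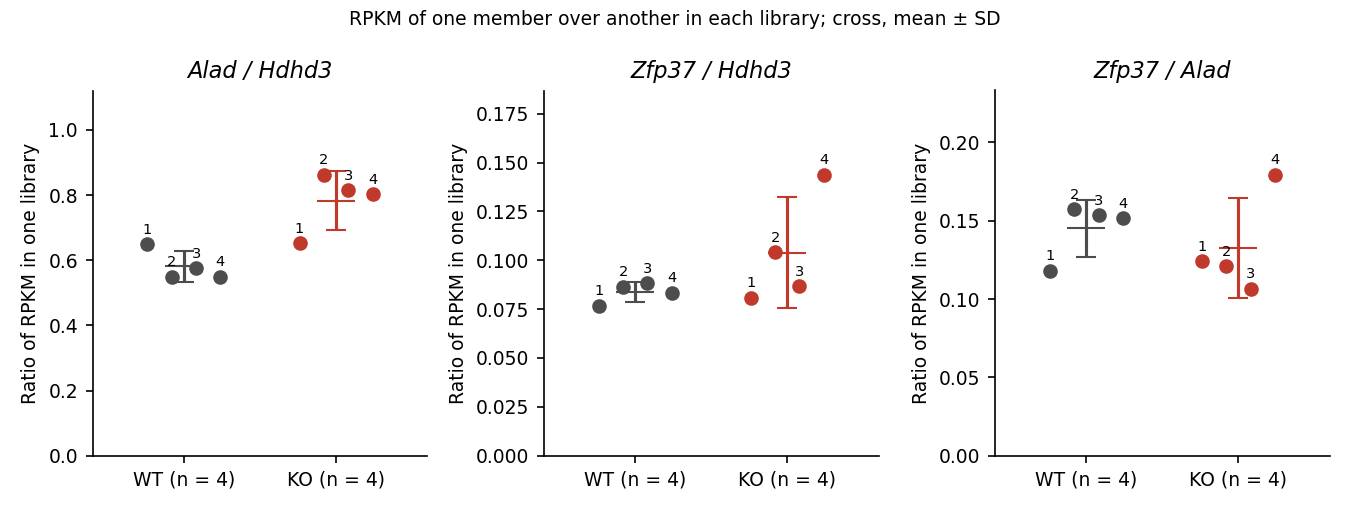
Ratio of the RPKM of one gene to that of another within each library (y axes, no unit, from 0) for Alad over Hdhd3, Zfp37 over Hdhd3 and Zfp37 over Alad, with points numbered by replicate and a cross for the mean ± SD of 4 libraries. The Alad to Hdhd3 ratio is 0.550 to 0.650 in WT and 0.653 to 0.862 in KO, and KO library 4 stands highest in both panels with Zfp37.

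Within WT the 3 genes ranked the libraries almost alike. WT library 2 was highest and WT library 3 next for all 3, and libraries 1 and 4 were lowest, in one order for Hdhd3 and Alad and in the other for Zfp37. This split was common in the table: in 64 of the 119 genes (53.8%) libraries 2 and 3 both lay above libraries 1 and 4. Within KO the agreement was partial. Hdhd3 and Alad both ranked the KO libraries 3, 2, 1, 4, an order that 8 of the 119 genes (6.72%) showed, these 2 included. Zfp37 ranked them 4, 2, 3, 1, so that KO library 4 was its highest and the lowest of the other two.

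As deviations from the group mean of log2(RPKM + 0.1), all 3 genes pointed the same way in 5 of the 8 libraries, all 4 WT libraries and KO library 2. Alad in WT library 1 was close to its mean, at 0.988 of the mean RPKM. The count was 3 without WT replicate 2, 3 or 4 and 4 without WT replicate 1. With scaling by the listed genes it was 4 of 8. On the log2 scale, the median shift of 74 other listed genes was -0.07, 0.25, 0.15 and -0.03 in WT libraries 1 to 4. Higher levels in WT libraries 2 and 3 were thus shared across the listed genes, and not particular to these 3. How often other sets of 3 genes point the same way was not computed. In KO library 4 the deviations were 0.15 for Zfp37, -0.34 for Hdhd3 and -0.29 for Alad. The same library had the highest Smarcad1 level of the KO group, and a link with these deviations was not tested. KO library 1, with the next highest Smarcad1 level, had deviations of -0.23 for Zfp37, 0.06 for Hdhd3 and -0.19 for Alad. The root mean square difference of the deviations over 8 libraries was 0.13 for Hdhd3 and Alad, 0.22 for Zfp37 and Hdhd3 and 0.21 for Zfp37 and Alad, beside a median of 0.26 over 2701 pairs of the other 74 genes with a mean of at least 0.5 RPKM. Within WT alone it was 0.05 to 0.13 for the 3 pairs, and within KO it was 0.15 for Hdhd3 and Alad and 0.27 to 0.30 for the pairs with Zfp37. Over 8 libraries, genes on other chromosomes were closer to Zfp37: Zcchc3 at 0.07, Sccpdh at 0.10 and Zfp809 at 0.16. Nnt, Treh and Fam108a stood at 0.12, 0.12 and 0.13 from Hdhd3, much as Alad did. From Alad, Nnt (0.17), Treh (0.18) and Aplp1 (0.24) were further off than Hdhd3. These genes were taken from the search for similar patterns described below, which ranked by another measure that includes the difference between WT and KO. Other listed genes may therefore stand closer to a member within groups than those named. With 4 libraries in each of the separate groups, no correlation was computed.

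**Figure D5:**
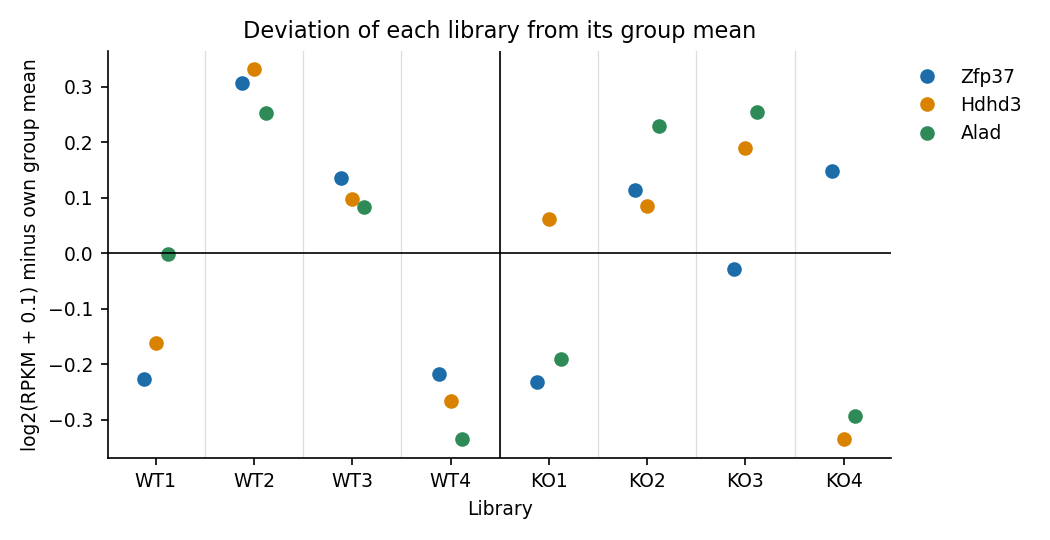
Deviation of Zfp37, Hdhd3 and Alad in each library from the mean of its own group (y axis, log2(RPKM + 0.1)), with WT libraries left and KO libraries right of the vertical line. The 3 genes lie on one side of 0 in each WT library, with Alad in WT library 1 almost at 0, and part in KO libraries 1, 3 and 4, where Zfp37 in library 4 is at 0.15 and the others are at -0.34 and -0.29.

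Other genes of the pathways were sought in the table. Of 20 genes of this stretch of chromosome 4 on the list used here, the 3 members are listed. Of 9 heme synthesis genes only Alad is listed, of 8 genes of heme breakdown and transport 0, and of 10 phosphatases of the haloacid dehalogenase family only Hdhd3. Of 12 genes of KRAB zinc finger repression 2 are listed, Zfp37 and Zfp809, a KRAB zinc finger gene on chromosome 9 known for silencing retroviruses. Zfp809 averaged 1.59 ± 0.304 RPKM over the WT and 2.84 ± 0.315 RPKM over the KO libraries (SD, n = 4 per group), a ratio of 1.79. Because the table holds selected genes only, the absence of the others says nothing of their levels.

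The listed genes most alike in pattern were found by the root mean square difference of gene-centred log2(RPKM + 0.1) over the 8 libraries, among 74 other genes with a mean of at least 0.5 RPKM. For Zfp37 these were Zcchc3 (0.15), an antiviral cofactor gene on chromosome 2, Zfp809 (0.19) and Sccpdh (0.22) on chromosome 1. For Hdhd3 they were Nnt (0.12), which encodes the mitochondrial nicotinamide nucleotide transhydrogenase, lies on chromosome 13 and is known to be partly deleted in C57BL/6J but not in other C57BL/6 substrains, Treh (0.13), the brush border enzyme trehalase, on chromosome 9, and Fam108a (0.17) on chromosome 10. For Alad they were Treh (0.25), Aplp1 (0.25), which encodes an amyloid precursor-like protein and lies on chromosome 7, and Nnt (0.26). Alad stood at 0.24 from Hdhd3 and 0.26 from Zfp37 by the same measure. Nnt went from 0.465 ± 0.0475 to 0.969 ± 0.158 RPKM, a ratio of 2.08, and Treh from 5.57 ± 1.25 to 10.96 ± 2.27 RPKM, a ratio of 1.97 (SD, n = 4 each). The Nnt genotype of these mice was not measured, and its part in the Nnt ratio was not tested.

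Other listed neighbours differed in how evenly they moved. Ccdc21, Ubxn11 and Sh3bgrl3, far from the members on chromosome 4, had lower means in KO, with ratios of 0.264, 0.875 and 0.835, although the groups overlapped for Ubxn11. Sec14l2 and Patz1 on chromosome 11 were higher, with ratios of 1.79 and 1.55. Sec14l4, also on chromosome 11 and nearer to Sec14l2 than to Patz1, had at most 2 reads in any WT library and 17 to 130 in KO. Aplp1 was 2.17 times higher in KO, while its neighbour Kirrel2 had at most 2 reads in any WT library and 30 to 77 in KO. These groups were picked with their values known, so no contrast with them was tested.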

How the data were processed

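Whole SI tissue of 4 WT and 4 KO mice was sequenced, and groups and replicate numbers were taken from the sample titles. Per the labels and methods, the authors trimmed reads with Trim Galore 0.4.1, mapped them to GRCm38 with HISAT2 2.0.1 and counted uniquely mapped reads in SeqMonk over merged isoforms. The methods name exons, whereas the values fit division by genomic span. The authors deposited RPKM for 119 genes with a DESeq2 FDR under 0.05. The FDR column holds the adjusted p-value of the authors and was not used, nor were the deposited group means. Selection by that comparison can inflate the sizes of change, and strand in counting is not given in the sources used here.

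All 939 RPKM values above 0 became whole reads, within 0.05 of a read, when multiplied by genomic span and a fitted number of mapped reads. The same search recovered 8 of 8 planted depths in simulated libraries of 119 genes. Differences and SEs came from limma 3.58.1 (R 4.3.3) on log2(RPKM + 0.1) over all 119 genes with group as the only term, tested on simulated data. No p is given, since the genes were chosen from this contrast. Gene positions came from GENCODE M21 (GRCm38) and promoters from RefSeq (GRCm38.p6). Python 3.11.15 was used. Litters and ages of these mice are not given in the sources used here, and spreads are those between these libraries.

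The members, gene lists and comparison groups were chosen with earlier results of these data known. Named genes were the 3 members, Smarcad1, the 3 listed genes closest to each member, other listed neighbours and listed genes of the gene lists. Abca1 and Tlr4 were chosen after their values were known. The settings varied were the pseudocount (0.01 and 1), a minimum mean (0.5 RPKM), medians, the replicate number as a block, scaling by the listed genes and leaving out each library. A voom fit of the recovered reads, and leaving out libraries for the count of shared directions, were added after seeing the data.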

Additional observations from a re-analysis of the deposited data

Results flagged for a closer look

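In 12 groups of 4 libraries, covering the RPKM of Zfp37, Hdhd3 and Alad and their 3 ratios, 1 library stood apart by Dixon's criterion. It was the ratio of Zfp37 to Alad in WT replicate 1, at 0.118 against 0.152 to 0.157 in the other WT libraries, a gap of 0.853 of the range. Chance gives about 1 such flag in 20 groups, and no cause was tested.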

How the results depend on the processing

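Of 108 recalculations of 11 results, 101 stayed within the spread between libraries, or within 1.5 times for a count, 7 moved and 0 reversed direction. Some of the 101 could not move. The differences with a minimum mean of 0.5 RPKM or with the replicate block equal the main values by construction. Leaving out 1 library cannot create an overlap between groups. The count of 101 therefore overstates how far stability was put to a check. The log2 difference of Zfp37 moved to 0.42 at a pseudocount of 1, which exceeds its RPKM. The number of KO libraries past a 2-fold step moved for Hdhd3 from 1 to 3 with the WT median as reference, and was 1 to 3 when 1 WT library was left out (3 without WT replicate 2, 2 without WT replicate 3). The number of libraries in which all 3 genes deviated the same way was 3 to 6 with 1 library left out, and 4 with scaling by the listed genes. Scaling by 74 listed genes, whose median is 0.15 (log2) lower in KO and which were themselves selected, raised the differences to 1.13 for Zfp37, 1.05 for Hdhd3 and 1.45 for Alad. Voom on the recovered reads gave 1.20 for Zfp37, 0.92 for Hdhd3 and 1.35 for Alad. With the replicate number as a block, the differences were by construction still 1.00, 0.90 and 1.31, with SEs of 0.13, 0.12 and 0.10. Correlations of same-numbered deviations across 77 genes were 0.27, 0.21, -0.11 and -0.03. These genes were selected and are not independent replicates, so the values cannot decide whether replicate numbers pair the libraries. Litters are not given in the sources used here.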

Other observations

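The 2 listed genes that flank the locus at a distance were also higher in KO. Tlr4, a Toll-like receptor for bacterial lipopolysaccharide, went from a WT mean of 0.0751 ± 0.0140 to a KO mean of 0.152 ± 0.0296 RPKM, and Abca1, a cholesterol exporter, from 0.209 ± 0.0118 to 0.313 ± 0.0406 RPKM (SD, n = 4 per group). Their ratios of 2.02 and 1.49 come from genes selected by the same comparison. All KO libraries lay above all WT libraries in both genes, as in 48.7% of the table.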
